A study of Homo sapiens with 9 samples.

Results

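The aryl hydrocarbon receptor pathway is described here by 8 genes chosen by name from the 23284 gene symbols of the deposited tables. They are the receptor AHR, its partner ARNT, the inhibitors AHRR and TIPARP, and the target genes CYP1A1, CYP1A2, CYP1B1 and NQO1. Paired-end RNA-Seq libraries, 9 in all, were each made from a culture of HT-29, an established human colon cancer line. All cultures were grown in DMEM with fetal bovine serum and kept under treatment for 5 days. Triplicate cultures received the DMSO vehicle alone (0 µM), 5 µM 5-Aza or 10 µM 5-Aza. 5-Aza (5-aza-deoxy-cytidine) is a cytidine analog that is incorporated during replication and traps DNA methyltransferases, so that methylation is lost as cells divide. No agonist of the receptor was named among the treatments, and every culture is of this 1 cell line.

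AHR is a ligand-activated transcription factor that waits in the cytoplasm with the chaperone HSP90. On binding a ligand, such as a dioxin, a polycyclic hydrocarbon or a tryptophan product, it enters the nucleus, pairs with ARNT and binds xenobiotic response elements (XREs) whose core is GCGTG. CYP1A1 is its classical target in the gut and liver, and AHRR and TIPARP are induced by the receptor and damp it in turn. CpG methylation within and around XREs is known to oppose binding of the receptor.

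The promoters of 5 members are shown to compare the CpG and XRE content near the start site of target genes with that of the inhibitors. XREs further from the start site were not searched for. Each window runs from 250 bases before to 50 bases after the RefSeq start site (GRCh38.p14), is written 5′ to 3′ on the strand of the gene, and has GCGTG, read on either strand, in capitals. They lie at chr15:74725479-74725778 (minus strand) for CYP1A1, chr15:74748595-74748894 (plus) for CYP1A2, chr16:69726511-69726810 (minus) for NQO1, chr5:321464-321763 (plus) for AHRR and chr3:156674340-156674639 (plus) for TIPARP.
CYP1A1: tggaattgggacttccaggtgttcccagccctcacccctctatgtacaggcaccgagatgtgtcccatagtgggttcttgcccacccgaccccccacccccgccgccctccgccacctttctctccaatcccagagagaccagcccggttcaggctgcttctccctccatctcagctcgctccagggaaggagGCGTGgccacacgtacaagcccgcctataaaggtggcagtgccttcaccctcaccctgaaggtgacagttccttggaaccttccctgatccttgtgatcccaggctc
CYP1A2: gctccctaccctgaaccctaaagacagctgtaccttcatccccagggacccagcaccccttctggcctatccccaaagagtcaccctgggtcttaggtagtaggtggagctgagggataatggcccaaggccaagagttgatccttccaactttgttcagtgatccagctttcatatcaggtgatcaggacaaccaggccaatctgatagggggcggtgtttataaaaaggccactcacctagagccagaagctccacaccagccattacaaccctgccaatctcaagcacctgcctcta
NQO1: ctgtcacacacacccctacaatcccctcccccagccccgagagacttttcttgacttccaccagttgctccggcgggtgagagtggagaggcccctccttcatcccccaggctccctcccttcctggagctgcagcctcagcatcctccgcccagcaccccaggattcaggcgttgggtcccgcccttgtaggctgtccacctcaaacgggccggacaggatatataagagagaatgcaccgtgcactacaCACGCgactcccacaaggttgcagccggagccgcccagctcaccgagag
AHRR: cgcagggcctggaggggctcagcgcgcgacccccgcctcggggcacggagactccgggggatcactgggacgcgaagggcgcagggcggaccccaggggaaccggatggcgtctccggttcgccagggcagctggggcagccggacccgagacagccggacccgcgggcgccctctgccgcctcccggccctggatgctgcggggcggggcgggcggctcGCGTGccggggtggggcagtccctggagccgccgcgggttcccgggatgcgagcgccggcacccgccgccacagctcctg
TIPARP: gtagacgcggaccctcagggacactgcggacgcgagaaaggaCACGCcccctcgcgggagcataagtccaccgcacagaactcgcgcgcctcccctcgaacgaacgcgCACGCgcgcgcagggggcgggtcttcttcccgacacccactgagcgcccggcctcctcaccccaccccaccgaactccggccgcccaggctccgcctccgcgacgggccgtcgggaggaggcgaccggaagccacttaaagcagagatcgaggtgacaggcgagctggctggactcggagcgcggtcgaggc

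A match to GCGTG stood once in the CYP1A1, NQO1, AHRR and AHR windows and at 2 places in the TIPARP window. There was no match in these 300 bases of CYP1A2 or ARNT. Of all 27305 promoter windows of the same length, 36.3% held at least 1 match, so a match on its own sets no promoter apart. The longer form TNGCGTG, which contains the core, stood in the AHRR and NQO1 windows and in 5.51% of all windows. A promoter sequence was matched for 7 of the 8 members, all but CYP1B1. CpG sites, the substrate of DNA methylation, numbered 41 for TIPARP, 40 for AHRR, 30 for AHR, 25 for ARNT, 14 for NQO1, 10 for CYP1A1 and 1 for CYP1A2, beside a median of 14 over all windows.

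**Figure D1:**
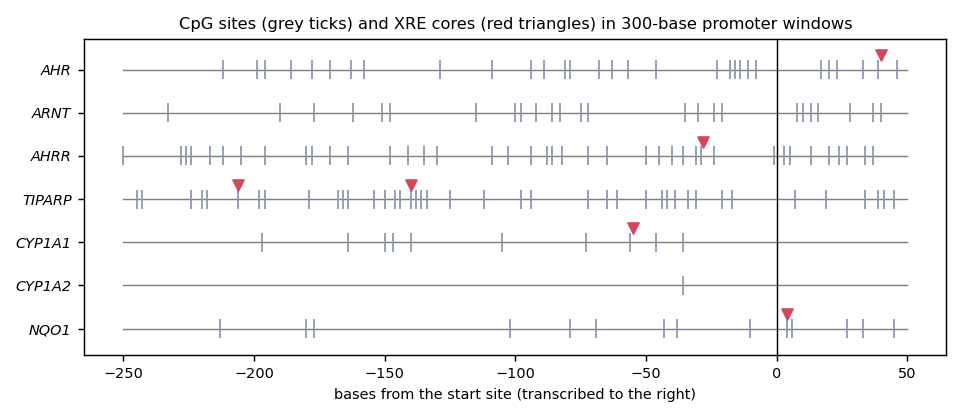
Positions of CpG dinucleotides (grey ticks) and of the XRE core GCGTG on either strand (red triangles) in the promoter windows of 7 members, by bases from the start site (x axis, start site at 0). The TIPARP and AHRR windows are dense in CpG sites with 41 and 40, and the CYP1A2 window holds 1 CpG and no core.

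The FPKM values per library summed to between 3.69e+09 and 5.91e+09, so the values are read as relative levels. The term that divided each library, read from the value of 1 fragment at microRNA genes, ranged from 1 to 2.57 relative to control replicate 1. It was 1, 1.51 and 2.14 in the control libraries, 2.41, 2.29 and 2.57 at 5 µM and 1.27, 2.01 and 1.70 at 10 µM. Every 5 µM library thus had a larger term, and a smaller value per fragment, than any other library. The part of this in genes listed at 0 outside the 5 µM libraries was not tested. All 10 markers of colon epithelium that were looked up, such as EPCAM, VIL1 and KRT20, were above 0 in all 9 libraries. Their summed FPKM lay between 82854700 and 99292400 at 0 µM, between 35216400 and 39881200 at 5 µM and between 27544500 and 48303700 at 10 µM. KRT8 and KRT18 made up most of these sums and were called down at 5 µM vs. 0 µM, whereas CDX1 and CEACAM5 were called up, with log2 differences of 2.14 and 1.59. Of all tested genes, 2.17% were called down there and 14.1% up. By adjusted p alone, 6 of the 10 were lower there and 2 higher, where 17.7% and 21.3% of all tested genes were. The lower ones included CDX2, LGALS4, VIL1 and KRT20. At 10 µM vs. 0 µM, CDX2 (-1.38) and KRT20 (-1.31) were called down, where 3.4% of all tested genes were. Of 10 markers of other cell types, 4 were above 0 in all 9 libraries. The sum over all 10 lay between 133606 and 140057 at 0 µM, between 696860 and 743191 at 5 µM and between 218376 and 366225 at 10 µM. At 5 µM vs. 0 µM, 6 of the 10 were called up by limma at an adjusted p of at most 0.05 and over 2-fold, where 14.1% of all tested genes were called up. Most of the sum was CD68, while CD3E and ALB were listed at 0 in every control library and DCN in every 5 µM library. The part of these shifts in the results below was not tested. In whole cultures, fewer cells with a transcript and less of it per cell cannot be told apart.

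**Figure D2:**
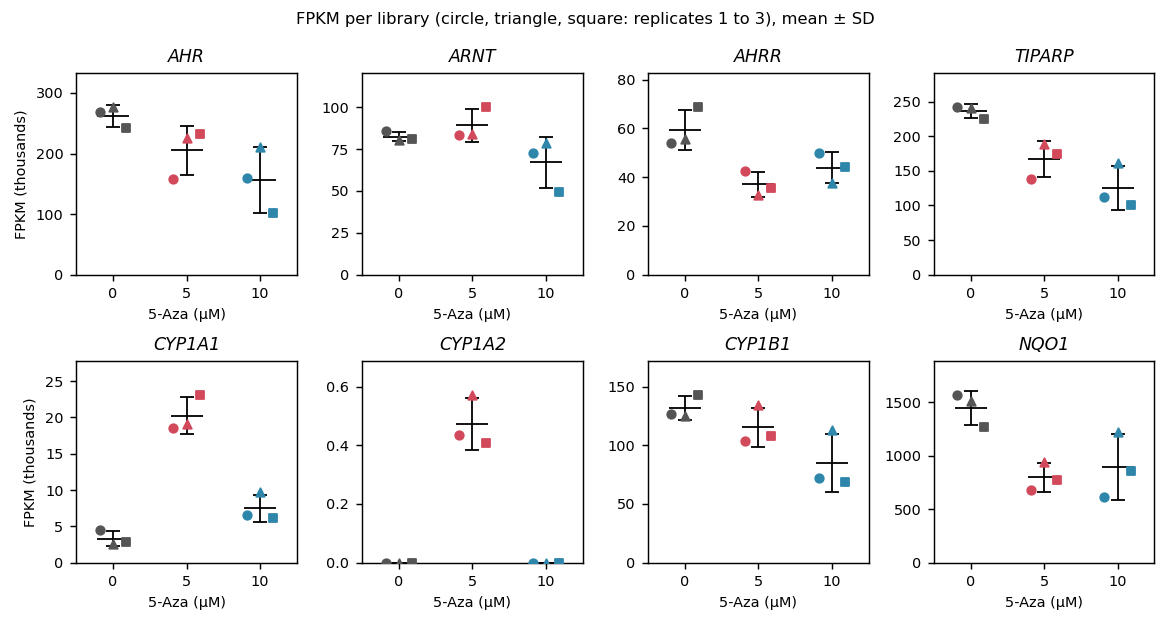
FPKM (y axis from 0, in units of 1000) of the 8 members against the 5-Aza concentration (x axis), with 1 point per library and the mean ± SD of the 3 replicates. CYP1A1 and CYP1A2 were highest at 5 µM, with control libraries of at most 4457 FPKM and 0 FPKM, while NQO1, TIPARP, AHRR, AHR and CYP1B1 had their highest libraries at 0 µM.

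AHR, the receptor itself, was well expressed in untreated cells and was not called under either concentration. The gene (ENSG00000106546) is annotated on the plus strand of chromosome 7, GRCh37 positions 16955983 to 17385776. It overlaps 5 other annotated genes, among them a protein-coding gene on the same strand (ENSG00000283321). The AHR level in what follows may include fragments of these. Its FPKM was 267948, 277192 and 242156 in the control libraries, 158341, 225379 and 231711 at 5 µM and 159240, 210343 and 101266 at 10 µM. Every treated library lay below every control library, and the 5 µM and 10 µM groups overlapped. The control mean was 262432 ± 18158 (SD, n = 3). It compares with 205144 ± 40656 (SD, n = 3) under 5 µM and 156950 ± 54575 (SD, n = 3) under 10 µM. Neither difference from the control passed the test, which was limma on log2(FPKM + 1) with Benjamini-Hochberg adjustment over all genes tested. The log2 difference was -0.37 at 5 µM (95% interval -0.75 to 0.01, adjusted p = 0.108) and -0.80 at 10 µM (95% interval -1.40 to -0.21, adjusted p = 0.0707). The 10 µM difference was -0.52 without 10 µM replicate 3 (adjusted p = 0.119), -0.42 when scaled to the same total (adjusted p = 0.209), and -1.04 without 10 µM replicate 2, where it was called (adjusted p = 0.0142). With all 9 samples in one fit the adjusted p at 10 µM was 0.0407, still within 2-fold. At 5 µM the difference was -0.20 without 5 µM replicate 1 and -0.087 when scaled to the same total.

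ARNT, the shared partner of AHR and of the hypoxia-inducible factors, was not called at either concentration. The gene (ENSG00000143437) lies on chromosome 1 from 150782189 to 150849184 on the minus strand. ARNT stood at 85568, 80604 and 81151 FPKM in the control libraries, at 83336, 83791 and 100287 FPKM at 5 µM and at 72807, 78665 and 49527 FPKM at 10 µM. The control and 5 µM groups overlapped, whereas all 10 µM libraries were lower than those of both other groups. The log2 difference was 0.11 at 5 µM (95% interval -0.13 to 0.34, adjusted p = 0.409 by limma) and -0.33 at 10 µM (95% interval -0.78 to 0.13, adjusted p = 0.261). When scaled to the same total they were 0.39 (adjusted p = 0.0277, within 2-fold) and 0.052. Without 5 µM replicate 3 the first was 0.020, and without 10 µM replicate 3 the second was -0.12. Because FPKM is a value per length, the receptor and its partner can be set side by side within a library, where the library term cancels. The ratio of AHR to ARNT lay between 2.98 and 3.44 in the control, between 1.90 and 2.69 at 5 µM and between 2.04 and 2.67 at 10 µM, so neither treated group reached the control range.

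AHRR, the repressor that competes with AHR for ARNT, was lower at 5 µM within the 2-fold limit. The gene (ENSG00000063438) lies on chromosome 5 from 321829 to 438406 on the plus strand, where it overlaps the read-through gene PDCD6-AHRR, so fragments of the 2 may have been split between them. Its FPKM was 53995, 55466 and 68880 in the control libraries, 42484, 32805 and 35703 at 5 µM and 49923, 37512 and 44275 at 10 µM. Libraries of both treated groups lay below those of the control, and the treated groups overlapped. At 5 µM the mean was 36997 ± 4968 (SD, n = 3) against 59447 ± 8202 (SD, n = 3), a log2 difference of -0.68 (standard error 0.15, adjusted p = 0.0126 by limma). The difference missed the threshold when every library was scaled to the same FPKM total (-0.40, adjusted p = 0.130) or without 5 µM replicate 3 (-0.66, adjusted p = 0.0521). At 10 µM it was -0.44 (standard error 0.18, adjusted p = 0.126), and -0.059 when scaled to the same total.

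TIPARP, an ADP-ribosyltransferase that modifies AHR and ends its signal, was lower at both concentrations by adjusted p, within 2-fold, but neither held in every fit with 1 library left out. This gene (ENSG00000163659) lies on chromosome 3 from 156391024 to 156424559 on the plus strand. TIPARP was listed at 242802, 241308 and 224811 FPKM in the control libraries, at 138389, 189480 and 174422 FPKM at 5 µM and at 112341, 161655 and 101347 FPKM at 10 µM. All 6 treated libraries were below the lowest control library. The control mean of 236307 ± 9984 (SD, n = 3) compares with 167430 ± 26253 (SD, n = 3) under 5 µM, a log2 difference of -0.51 (standard error 0.12, adjusted p = 0.0198 by limma). Under 10 µM the mean was 125114 ± 32119 (SD, n = 3), a log2 difference of -0.95 (standard error 0.19, adjusted p = 0.0213). The 5 µM difference lost its adjusted p when libraries were scaled to the same total (-0.22, adjusted p = 0.148), with all 9 samples in one fit (adjusted p = 0.0693), or without control replicate 1, control replicate 2 or 5 µM replicate 3 (adjusted p between 0.0550 and 0.0601). The 10 µM difference lost its adjusted p in 5 of 6 fits with a replicate left out: without control replicate 1, 2 or 3 it was 0.0782, 0.0892 and 0.0573, and without 10 µM replicate 1 or 3 it was 0.0701 and 0.0678. It was also lost without the filter on low values (0.0685). Without 10 µM replicate 2 the difference was -1.15 and passed both thresholds (adjusted p = 0.00424), and when scaled to the same total it was -0.57 (adjusted p = 0.0216). TIPARP-AS1 overlaps TIPARP on the other strand, and without strand in the counting their reads cannot be told apart.

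The 10 µM libraries themselves were uneven in scale. The median log2 difference from the control over 15300 genes above 0 in all 6 libraries was -0.24 at 10 µM, against -0.04 over 15448 genes at 5 µM. Median-of-ratios factors were 0.835 and 0.857 for 10 µM replicates 1 and 3, and at least 1.00 in the other 7 libraries. After that scaling, the differences at 10 µM were -0.56 for AHR, -0.20 for AHRR, -0.09 for ARNT and -0.70 for TIPARP, and TIPARP alone of these had an adjusted p at or below 0.05 (0.00850).

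CYP1A1, the monooxygenase that oxidizes polycyclic hydrocarbons and the classical reporter of AHR activity, rose at 5 µM. The gene (ENSG00000140465) lies on chromosome 15 from 75011883 to 75017877 on the minus strand and overlaps no other annotated gene. Its FPKM was 4457, 2530 and 2833 in the control libraries, 18527, 19079 and 23132 at 5 µM and 6512, 9669 and 6174 at 10 µM. These groups did not overlap at all, with 5 µM highest and 10 µM between the other two. Means of 20246 ± 2515 (SD, n = 3) and 3273 ± 1036 (SD, n = 3) stand in a ratio of 6.19, and the log2 difference was 2.67 (standard error 0.28, 95% interval 2.00 to 3.34, adjusted p = 0.000887 by limma). Under all 16 alternatives run for this difference it stayed between 2.33 and 2.95 and was called, with adjusted p between 0.000380 and 0.00817. For the same pair of groups an exact permutation test (2-sided) returned p = 0.1, which is the lowest value possible with 3 libraries against 3.

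From 5 µM to 10 µM, CYP1A1 fell by 1.46 on the log2 scale (standard error 0.26, adjusted p = 0.0214 by limma). This call was lost without 5 µM replicate 1, 2 or 3 (adjusted p = 0.0794, 0.0856 and 0.124), and with the replicate number as a block (adjusted p = 0.0669), while the difference stayed between -1.67 and -1.26. From 0 µM to 10 µM the log2 difference was 1.20 (95% interval 0.26 to 2.14, adjusted p = 0.0797), which missed the threshold. It was called after median-of-ratios scaling (1.44, adjusted p = 0.0355), after scaling to the same total (1.58, adjusted p = 0.0288) and with all 9 samples in one fit (adjusted p = 0.0230), and over the 16 alternatives its adjusted p reached 0.212.

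The low values of CYP1A1 could be read back as whole fragments. After division by the value of 1 fragment in each library, all 9 values were whole multiples of a single unit, within 0.02. They came to 14, 12 and 19 fragments in the control libraries, 140, 137 and 187 at 5 µM and 26, 61 and 33 at 10 µM. Thus the control level was measured on 45 fragments in all and the 5 µM level on 464. Set over the summed library terms, the ratio of 5 µM to control was 6.59 (95% interval 4.85 to 9.17, exact binomial). The ratio of 10 µM to control was 2.49 (95% interval 1.75 to 3.59), and that of 10 µM to 5 µM was 0.377 (95% interval 0.306 to 0.462). Such intervals cover counting error only and not the spread between cultures.

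CYP1A2, the neighbour of CYP1A1 and the main caffeine-metabolizing enzyme of the liver, was seen in the 5 µM libraries and in no other. The gene (ENSG00000140505) lies on chromosome 15 from 75041186 to 75048948 on the plus strand, divergent from CYP1A1. CYP1A2 was listed at 0 FPKM in all control and all 10 µM libraries, and at 435, 572 and 407 FPKM at 5 µM. Those values correspond to 4, 5 and 4 fragments. Against a floor of 3 fragments over the 3 control libraries the level at 5 µM was 2.77-fold higher, and against the same floor at 10 µM 2.97-fold higher. These values take the 13 fragments at 5 µM as exact, so they are not lower limits. Limma called it up at 5 µM vs. 0 µM (adjusted p = 0.00117) and down at 10 µM vs. 5 µM (adjusted p = 0.0120), on fitted differences that depend on the pseudocount and are not sizes. With a pseudocount of 1000 in place of 1 the differences were 0.56 and -0.56, within 2-fold, and neither was called. The fall was also lost without 5 µM replicate 3 (adjusted p = 0.0617) or 5 µM replicate 1 (just above the limit of 0.05), and with the replicate number as a block (adjusted p = 0.0657). A listed 0 at this depth leaves room for a transcript below 1 fragment.

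**Figure D3:**
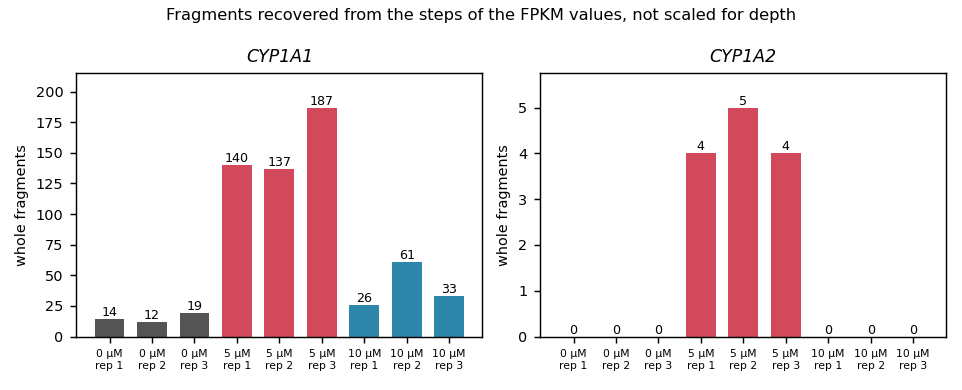
Whole fragments (y axis, not scaled for depth) of CYP1A1 (left) and CYP1A2 (right) in each of the 9 libraries (x axis). CYP1A1 rests on 12 to 19 fragments in the control libraries and on 137 to 187 at 5 µM, and CYP1A2 rests on 4, 5 and 4 fragments at 5 µM and on 0 elsewhere.

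CYP1B1, the extrahepatic member of the family that hydroxylates estradiol and hydrocarbons, did not share the rise of CYP1A1. Its gene (ENSG00000138061) lies on chromosome 2 from 38294116 to 38337044 on the minus strand and overlaps CYP1B1-AS1 and RMDN2 on the other strand. CYP1B1 stood at 126998, 125296 and 143306 FPKM in the control libraries, 103474, 134409 and 108176 FPKM at 5 µM and 72243, 113253 and 69193 FPKM at 10 µM. The control and 5 µM libraries overlapped, and the 10 µM libraries lay below the control. At 5 µM the log2 difference was -0.20 (95% interval -0.49 to 0.09, adjusted p = 0.225 by limma), an interval that excludes a rise of 2-fold, and its sign turned (0.087) when libraries were scaled to the same total. At 10 µM it was -0.67 (95% interval -1.15 to -0.19, adjusted p = 0.0660). That value was -0.43 after median-of-ratios scaling and -0.29 when scaled to the same total. Its adjusted p was 0.00509 without 10 µM replicate 2 (-0.90) and 0.0313 with all 9 samples in one fit, still within 2-fold. Without 5 µM replicate 2 the 5 µM difference was -0.32 (adjusted p = 0.0483), and without 5 µM replicate 1 it was -0.13. CYP1B1 had between 28.5 and 50.6 times the FPKM of CYP1A1 in the control libraries, between 4.68 and 7.04 times at 5 µM and between 11.1 and 11.7 times at 10 µM. The 3 ranges of this ratio, in which the library term cancels, did not overlap.

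NQO1, a quinone reductase under the control of both AHR and NRF2, had the highest level among the members and was lower at 5 µM. The gene (ENSG00000181019) lies on chromosome 16 from 69740899 to 69760571 on the minus strand. It overlaps 2 annotated genes, among them a long noncoding RNA on the other strand (ENSG00000261602). NQO1 was listed at 1571650, 1512200 and 1270020 FPKM in the control libraries, at 677009, 942481 and 775346 FPKM at 5 µM and at 613307, 1224960 and 853950 FPKM at 10 µM. All treated libraries lay below the control, with 10 µM replicate 2 closest to it. The mean was 1451290 ± 159774 (SD, n = 3) in the control and 798279 ± 134214 (SD, n = 3) at 5 µM. That log2 difference of -0.87 (standard error 0.15, adjusted p = 0.00476 by limma) was within 2-fold, and its adjusted p was at most 0.0284 under all 16 alternatives run. At 10 µM the difference was -0.74 (standard error 0.26, adjusted p = 0.0898). When scaled to the same total it was -0.37 (adjusted p = 0.119). Its adjusted p was 0.0128 without 10 µM replicate 2 and 0.0455 with all 9 samples in one fit, within 2-fold in both, and without 10 µM replicate 1 the difference was -0.50 (adjusted p = 0.172). The ratio of NQO1 to CYP1A1 within a library lay between 353 and 598 in the control, between 33.5 and 49.4 at 5 µM and between 94.2 and 138 at 10 µM.

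**Figure D4:**
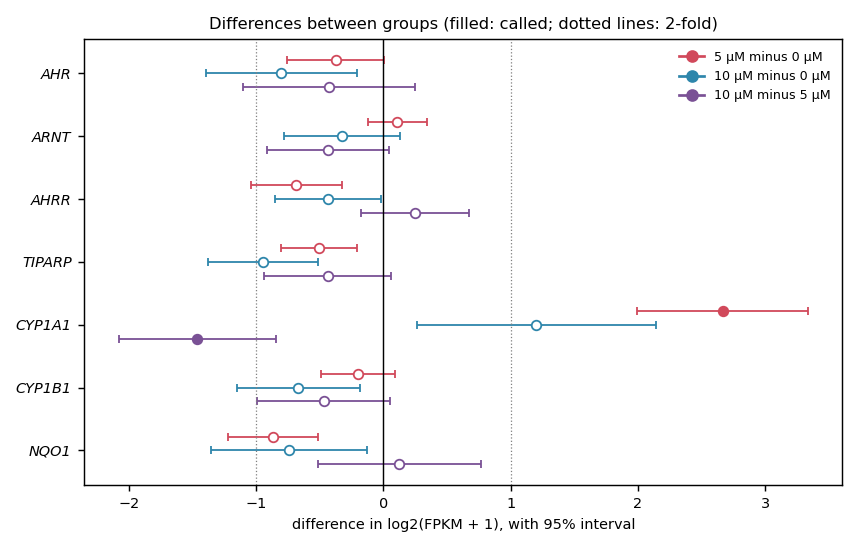
Difference in log2(FPKM + 1) with its 95% interval (x axis) for 7 members and each pair of groups; filled points were called and dotted lines mark 2-fold. CYP1A1 at 2.67 (5 µM minus 0 µM) and -1.46 (10 µM minus 5 µM) holds the filled points. CYP1A2 is left out because its differences depend on the pseudocount.

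A gene was called at an adjusted p of at most 0.05 and a change above 2-fold. At 5 µM vs. 0 µM, 8 members were tested, and CYP1A1 and CYP1A2 were called up and none down, where 14.1% of 20051 tested genes were called up and 2.17% down. By adjusted p alone, 3 members were lower (AHRR, NQO1 and TIPARP), where 17.7% of all tested genes were lower, and the same 2 members were higher, where 21.3% were higher. At 10 µM vs. 0 µM, 7 members passed the minimum and none was called, where 4.07% of 18928 genes were called up and 3.4% down, and TIPARP alone was lower by adjusted p alone, where 9.71% were lower and 5.39% higher. With p below 0.05 before adjustment and a change above 2-fold, 1336 genes, CYP1A1 among them, would count as up and 838 as down there. At 10 µM vs. 5 µM, CYP1A1 and CYP1A2 were called down, where 4.82% of 20085 genes were called down and 0.129% up. By adjusted p alone the background was 5.85% down and 0.319% up, and the members that passed were the same 2. The comparisons share samples, so the members' values in each are not separate evidence. CYP1A2, listed at 0 elsewhere, passed the minimum of 10 FPKM only through the 5 µM group, so its calls are not independent of that filter. At 5 µM vs. 0 µM the same holds for ARNT2, GSTA1 and GSTA2, examined below.

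Cofactors of the receptor were examined as a list of 14 genes that holds AHR, ARNT and AHRR. At 5 µM, 1 gene was called up, ARNT2, a relative of ARNT found mainly in neurons, and no gene was called down, where 14.1% and 2.17% of all tested genes were. ARNT2 was listed at 0 in every control library and at 400, 315 and 934 FPKM at 5 µM, an estimated 8, 6 and 19 fragments. ARNT, for comparison, had at least 83336 FPKM in the same libraries. The ARNT2 call was lost with a pseudocount of 1000. The coactivator NCOA3 and the corepressor NRIP1 were called down at 10 µM vs. 0 µM, where 3.4% of all tested genes were, with log2 differences of -1.01 (adjusted p = 0.0191 by limma) and -1.24 (adjusted p = 0.0163). These calls were kept in 8 and 11 of 16 alternatives and both were lost when libraries were scaled to the same total (-0.64 and -0.86), without control replicate 1 or 2, or without 10 µM replicate 3. That of NCOA3 was also lost after median-of-ratios scaling (-0.77) and without control replicate 3 or 10 µM replicate 1. The median over the list was -0.27 at 5 µM and -0.37 at 10 µM, beside 0.14 and -0.15 over all genes tested. Those include genes listed at 0 in some libraries, and over genes above 0 in all 6 libraries the medians were -0.04 and -0.24. HSP90AB1, which encodes a form of the chaperone that holds the receptor in the cytoplasm, was not called in either comparison with the control.

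Of 13 further targets ascribed to AHR in various tissues, 12 were tested, and 3 were called up and 1 down at 5 µM, where 14.1% of all tested genes were called up and 2.17% down. GSTA1, a glutathione transferase of the liver and gut, was listed at 0 in every control library and at 3385, 4785 and 4533 FPKM at 5 µM. It remained at 2869, 1452 and 1928 FPKM at 10 µM, so that all 6 treated libraries were above the control, on an estimated 12, 16 and 17 fragments at 5 µM and 5, 4 and 5 at 10 µM. GSTA2, its near-identical neighbour, was called up on an estimated 3 to 8 fragments, and reads may have been split between the pair. PTGS2, the inducible cyclooxygenase, rose by a log2 value of 1.16 (standard error 0.20, adjusted p = 0.00592 by limma), and by 0.96, short of 2-fold, without 5 µM replicate 3. ALDH3A1, an aldehyde dehydrogenase that is induced with CYP1A1 by dioxin, went the other way. Its FPKM dropped from 118997 ± 6352 (SD, n = 3) to 41402 ± 3025 (SD, n = 3) at 5 µM, a log2 difference of -1.52 (standard error 0.09, adjusted p = 0.000202), which was called under all 16 alternatives. At 10 µM the difference was -1.35 (adjusted p = 0.0441), a call that was lost without any 1 of the control libraries, without 10 µM replicate 1 or 3, and when scaled to the same total (-0.98). The median over the 12 genes was 0.13 at 5 µM, beside 0.14 over all genes tested.

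The other control of NQO1 was examined through 20 targets and regulators of NRF2, a transcription factor of the oxidative stress response encoded by NFE2L2. All 20 were tested, none was called up, and 2 were called down at 5 µM and 3 at 10 µM, where 2.17% and 3.4% of all tested genes were called down. The shares called up were 14.1% and 4.07%. AKR1B10, a reductase of retinal and other carbonyls, fell from 772897 ± 59672 (SD, n = 3) to 147496 ± 14492 FPKM (SD, n = 3) at 5 µM, with a log2 difference of -2.39 (standard error 0.10, adjusted p = 0.000108 by limma), and by 2.16 at 10 µM (adjusted p = 0.00497). AKR1C3, a steroid reductase with close paralogs, fell by 1.29 (adjusted p = 0.000685) and 1.40 (adjusted p = 0.0119). ME1, the cytosolic malic enzyme, joined them at 10 µM with -1.09 (adjusted p = 0.0161), a call kept in 9 of 16 alternatives. It was lost without control replicate 1 or 2 or 10 µM replicate 1 or 3, and after median-of-ratios scaling (-0.85). Without 10 µM replicate 3 the call of AKR1C3 at 10 µM missed the threshold (adjusted p = 0.0526), while AKR1B10 was called under every alternative in both comparisons. NFE2L2 itself was lower at 5 µM within 2-fold (-0.42, adjusted p = 0.0289). By adjusted p alone, 6 of the 20 genes were lower at 5 µM and 2 higher, where 17.7% and 21.3% of all tested genes were. The 2 higher genes were AKR1C1 (0.86, adjusted p = 0.00342 by limma) and AKR1C2 (0.54, adjusted p = 0.0127), both within 2-fold. The median over the list was -0.08 at 5 µM and -0.46 at 10 µM, beside 0.14 and -0.15 over all genes tested. Over genes above 0 in all 6 libraries, as all genes of this list were, the medians were -0.04 and -0.24.

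Among 12 other genes of the bHLH-PAS family, which share the dimerization domain of AHR and ARNT, none was called at 5 µM vs. 0 µM. Of all tested genes, 14.1% were called up there and 2.17% down. HIF3A was higher there but missed the threshold, with a log2 difference of 6.36 (standard error 2.48, adjusted p = 0.0880 by limma). The size of that difference depends on a control library listed at 0. HIF1A, a hypoxia-inducible factor that competes for ARNT, differed by 0.06 on the log2 scale at 5 µM vs. 0 µM (standard error 0.14, adjusted p = 0.757 by limma). At 10 µM vs. 5 µM, HIF3A was called down, where 4.82% of all tested genes were, with a log2 difference of -2.05 (adjusted p = 0.0352). HIF3A stood at 0, 543 and 570 FPKM in the control libraries. It stood at 6123, 4554 and 6209 FPKM at 5 µM and at 1614, 885 and 1704 FPKM at 10 µM. Every 5 µM library was above all libraries of the other groups. The call at 10 µM vs. 5 µM was kept in 8 of 16 alternatives. It was lost without any 1 of the 5 µM libraries (adjusted p between 0.0928 and 0.165), after either scaling and with the replicate block. The median over the family was 0.05 at 5 µM and -0.61 at 10 µM, beside 0.14 and -0.15 over all genes tested. Over genes above 0 in all 6 libraries the medians were -0.04 and -0.24.

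**Figure D5:**
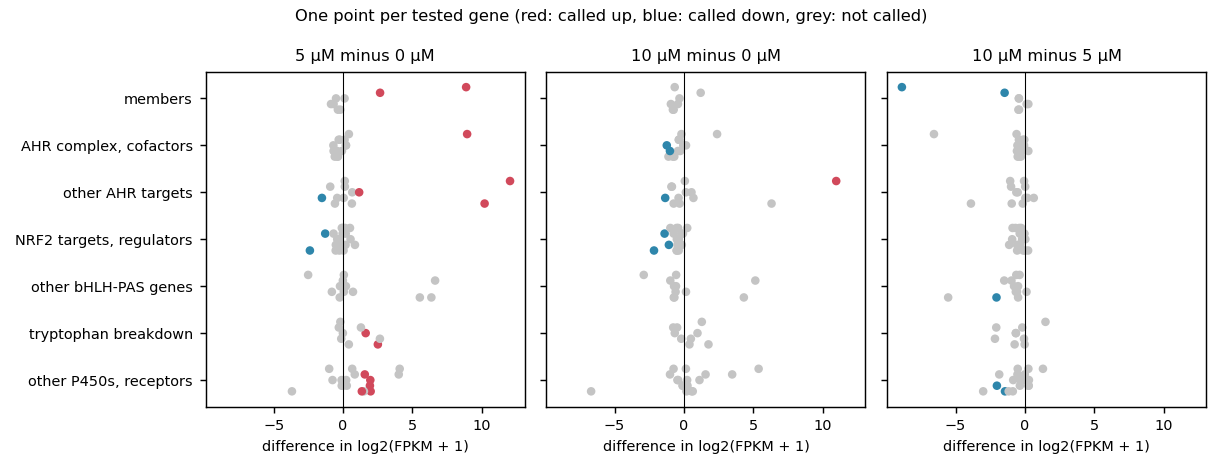
Difference in log2(FPKM + 1) (x axis) of every tested gene in the 8 members and 6 lists of related genes (rows; some genes stand on more than 1 list), in each pair of groups (panels). Red points were called up, blue points down and grey points not called; at 5 µM vs. 0 µM 5 of 18 other P450 and receptor genes and 2 of 8 members are red, and points above 8 are genes listed at 0 in every control library.

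The genes whose values ran most like those of a member over the 9 libraries were found by Pearson's r of log2(FPKM + 1) among 15274 symbols above 0 throughout. For CYP1A1 they were TMPRSS13 (r = 0.996), C16orf62 (r = 0.993) and AKAP12 (r = 0.992), each highest in the 5 µM libraries. For AHRR they were CCDC40 (r = 0.980), CYP3A5 (r = 0.974) and LOC730102 (r = 0.970). For AHR they were SBF2, UHMK1 and IQGAP1, and for TIPARP they were ITGB1, CDYL and TMED10, with r of 0.995 or 0.996 in each case. For NQO1 they were DDX21, GTPBP4 and CLNS1A (r between 0.990 and 0.994), for CYP1B1 they were TMBIM6, C14orf1 and UXS1 (r between 0.966 and 0.974), and for ARNT they were PEAK1, KIAA1147 and NUP62CL (r between 0.982 and 0.983). These values share the library term and 3 group levels, so such r are descriptions of 9 libraries.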

How the data were processed

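The authors filtered their reads, mapped these with TopHat (hg19) and ran Cufflinks for 1 FPKM value per gene, and the deposited files hold these FPKM values, not counts, with 1 file per library. The annotation version is not given in the sources used here. The study's methods name a library kit (TruSeq RNA) and no strand setting. Sample titles gave each library its group and replicate number. Values of repeated symbols were summed (no member is repeated). Fits used limma 3.58.1 under R 4.3.3 (lmFit, eBayes with trend) on log2(FPKM + 1), with the 6 libraries of each pair of groups, all genes whose largest value reached 10, no block, and Benjamini-Hochberg adjustment over all of them. The methods were tested on simulated data.

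FPKM steps in whole fragments: the 46 values above 0 of 12 microRNA genes, each 110 nucleotides long, were all integer multiples (within 0.01) of the value of 1 fragment, which gave the library term. For AHR, CYP1A1, CYP1A2 and CYP1B1 whole fragments were recovered (within 0.02), while fragments of other genes were estimated from the length of the canonical transcript and are approximate. Positions are from GENCODE on GRCh37, and promoters from RefSeq on GRCh38.p14. Other steps used scipy 1.17.1, pandas 2.3.3, numpy 2.4.6 and, for plots, matplotlib 3.10.9.

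The members, lists and tests were chosen with earlier results of these data known. Named are the 8 members, at most 5 called genes per list, comparison and direction, and the 3 genes most like each member by Pearson's r. HSP90AB1, HIF1A, NFE2L2, IDO1, TDO2, AKR1C1, AKR1C2 and the markers named were picked from the lists for their roles or values, after their values were seen. Replicates were separate cultures of 1 cell line. Alternatives were other pseudocounts, filters, thresholds, scalings, a replicate block, all samples in one fit, the largest entry of repeated symbols, a minimum of 10 fragments and each replicate left out. Running them on called genes outside the members was decided after seeing the data.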

Additional observations from a re-analysis of the deposited data

How the results depend on the processing

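The number of members called up at 5 µM vs. 0 µM was 2 and became 1, CYP1A1, with a pseudocount of 1000 or a minimum of 10 estimated fragments. The number called down there was 0 and became 3 without a fold change threshold. At 10 µM vs. 0 µM, 0 members were called up, and 1, CYP1A1, with all 9 samples in one fit, after median-of-ratios scaling or after scaling to the same FPKM total. The number called down was 0 there, 1 without a fold change threshold, and between 0 and 2 with each replicate left out. At 10 µM vs. 5 µM, 2 were called down, 1 with a pseudocount of 1000 or a minimum of 10 estimated fragments, and between 0 and 2 with each replicate left out, which leaves fewer samples. With the replicate number as a block the counts were 2 up at 5 µM vs. 0 µM and 0 down at 10 µM vs. 5 µM, and no other call of a member changed. Correlations of each library's deviation from its group mean were -0.07 to 0.09 for the 9 same-number pairs and -0.16 to 0.10 for the other 18, so the numbers were not taken to pair the samples. Scaling to the same FPKM total moved the median of the 15448 genes above 0 in all 6 libraries at 5 µM vs. 0 µM from -0.04 to 0.25 and turned CYP1B1 to 0.087, and at 10 µM vs. 0 µM it turned ARNT to 0.052. NQO1 at 10 µM vs. 5 µM was 0.12 and ranged from -0.13 (without 10 µM replicate 2) to 0.37 with each replicate left out. Of 24 calls of genes outside the members, examined under 16 alternatives each after seeing the data, 0 changed direction. As each had passed 2-fold, a change of direction was unlikely from the start. A number of these calls were lost in at least 1 alternative, and those of NCOA3 and HIF3A were kept in only 8 of 16. The cause of these shifts was not tested. Precision is limited by depth for CYP1A2, which rests on 13 fragments in all, and for the control level of CYP1A1, and by 3 cultures per group for the rest.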

Other observations

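Other cytochrome P450 genes of drug metabolism and their receptors made a list of 18, all tested. At 5 µM vs. 0 µM, 5 of them were called up and none down, where 14.1% of all tested genes were called up. CYP2B6, a drug oxidase of the liver under the receptors CAR and PXR, had the highest level of these. It stood at 32762, 40461 and 41585 FPKM in the control libraries, 131655, 135268 and 172815 FPKM in the presence of 5 µM, and 38086, 43923 and 27538 FPKM in the presence of 10 µM. The 5 µM libraries were above all others, and the control and 10 µM libraries overlapped. Its log2 difference was 1.93 at 5 µM vs. 0 µM (standard error 0.15, adjusted p = 0.000375 by limma) and -2.02 at 10 µM vs. 5 µM (adjusted p = 0.00465), and both calls held under all 16 alternatives run after seeing the data. CYP2A6 was called in the same comparisons, with 1.99 (adjusted p = 0.00229) and -1.44 (adjusted p = 0.0351), with estimated control fragments of 4, 7 and 11. The second of these calls was lost without any 1 of the 5 µM libraries, without 10 µM replicate 3, and after either scaling. Both genes have near-identical copies, so their values are uncertain. CYP2C18, CYP2J2 and CYP2W1 were called up at 5 µM with 1.96, 1.57 and 1.35. The call of CYP2C18 was lost without any 1 of the 5 µM libraries (adjusted p between 0.0905 and 0.121), and that of CYP2J2 without any of these or control replicate 2 or 3 (adjusted p between 0.0694 and 0.110). Over the list the median was 0.75 at 5 µM, beside 0.14 over all genes tested. CYP3A5, the main P450 of its subfamily outside the liver, was lower at 5 µM within 2-fold, at 1982790 ± 137273 (SD, n = 3) against 3389700 ± 641996 FPKM (SD, n = 3), a log2 difference of -0.76 (adjusted p = 0.00843).

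Enzymes that break down tryptophan, some of whose products bind AHR, made a list of 10, of which 9 were tested, and 2 were called up at 5 µM vs. 0 µM, where 14.1% of all tested genes were. IL4I1, a secreted amino acid oxidase, was called up at 5 µM vs. 0 µM with a log2 difference of 2.51 (standard error 0.74, adjusted p = 0.0385 by limma), where the estimated fragments were 1, 11 and 6 without 5-Aza and 37, 24 and 65 with 5 µM. That call was lost without any 1 of the 5 µM libraries or control replicate 3 (adjusted p between 0.0715 and 0.135). CCBL1, a kynurenine aminotransferase, rose from 33348 ± 6550 (SD, n = 3) to 102211 ± 12366 FPKM (SD, n = 3), a log2 difference of 1.63 (adjusted p = 0.00100 by limma). The median over the 9 genes was 0.42, beside 0.14 over all. IDO1, the interferon-induced enzyme that opens the pathway, was listed at 0 in 6 of the 9 libraries. TDO2, also on the list, was above 0 in all 9, with means of 1933, 4542 and 1130 FPKM at 0, 5 and 10 µM, and was not called.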
